A study of Mus musculus with 6 samples.

Results

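The late arrays of a Snail induction in mouse embryonic stem cells, taken at 8, 12 and 24 h, were compared with the early arrays, taken at 0, 2 and 4 h. All 6 arrays of the series entered the comparison, 3 on each side, assigned by the time in each array's title. There was 1 array per time, so the 3 times of a side served as its replicates. The spread within a side therefore held array error together with any change between its times. The division between 4 and 8 h was chosen with earlier results of these data known.

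The cells were E14 mouse embryonic stem cells, a line that can form all tissues of the embryo, and they carried Snail-ER, in which the Snail repressor is joined to an estrogen receptor domain. Such fusions wait in the cytoplasm until 4-hydroxytamoxifen (4-OHT), a receptor ligand, lets them enter the nucleus. The late side held cells after 8, 12 and 24 h of 4-OHT, and the early side cells at 0 h, before induction, and after 2 and 4 h. Both sides shared the line, the fusion and a medium with fetal bovine serum and LIF, a cytokine that holds mouse stem cells undifferentiated. No cells without the fusion, and no cells kept for the same hours without 4-OHT, were analysed here, so 4-OHT, the fusion and time in culture cannot be told apart. Separate cultures are not stated in the labels, nor is whether the line was 1 clone or what drives the transgene. Polyadenylated RNA was measured on Illumina bead arrays, and the submitters' normalized table gave a signal for 45281 probes.

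Snail is a zinc finger factor that binds E-box motifs and brings histone deacetylases and other corepressors to its targets. It is best known for silencing E-cadherin when epithelial cells turn mesenchymal, as in the primitive streak. Mouse embryonic stem cells hold a naive state, kept by LIF and a circuit of factors such as Klf2, Esrrb and Tfcp2l1, and on leaving it they pass through a formative and primed state marked by Fgf5, Otx2 and Dnmt3b.

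The labelled cell type was checked first. All 6 of the stem cell markers examined, Pou5f1, Sox2, Nanog, Sall4, Tdgf1 and Zfp42, were detected on all 6 arrays. Markers of other cell types were detected in part. Of the trophectoderm list, 9 of 15 genes were detected on at least 1 array and 3 on all 6, while the lineage factor genes Cdx2 and Elf5 were not detected on any, Eomes was on 2 and Gata3 on 1. Of the primitive endoderm list, 8 of 18 were detected on at least 1 array and 2, Col4a1 and Lamc1, on all 6, while Gata4, Gata6 and Sox17 were not detected on any and Sox7 was on 2. Of the fibroblast feeder list, 2 of 11 were detected, Thy1 on all 6 arrays and Dcn on 2, and the collagen genes Col1a1, Col1a2 and Col3a1 on none. Detection on an array meant a signal no lower than the dimmest probe with a detection p under 0.01 there. Arrays differed in sensitivity: 10571, 15928 and 15837 probes were detected at 8, 12 and 24 h, against 10659, 10047 and 13459 at 0, 2 and 4 h (exact permutation test, 2-sided, p = 0.3, where the smallest possible p is 0.1). The standard deviation (SD) of the background was wide at 8 h (16 intensity units), 0 h (16.1) and 2 h (14.7) and narrow at 12 h (4.72), 24 h (4.73) and 4 h (8.72). Of 1433 genes detected on late arrays alone, 1376 were detected only at 12 or 24 h, while 154 genes were detected on early arrays alone.

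Snai1 itself, for which the fusion is named, had normalized signals of 23.4, 18.6 and 19.8 at 8, 12 and 24 h, against 84.9, 55.2 and 47.9 at 0, 2 and 4 h. The late values lay below all early ones, but the probe was not detected at 8 h or at 2 h, and the difference did not pass the test over all probes (-1.08 ± 0.20, SE, limma adjusted p = 0.096; 0.0027 among detected probes). Where the probe lies relative to the fusion is not given in the sources used here, so the value does not measure Snail-ER.

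Late and early arrays were tested for each probe with limma on log2(normalized signal + 16), 2-sided, with Benjamini-Hochberg adjustment over all 45281 probes at 0.05. Differences are late minus early on that log2 scale, and they understate the change of dim genes. Their standard error (SE) is limma's moderated one, with 4 residual degrees of freedom plus the prior ones given below. In total 268 probes (0.592%) were higher and 377 (0.833%) lower on late arrays, and 6310 probes (13.9%) had an unadjusted p under 0.05. The calls included 32 higher (0.114%) and 27 lower (0.096%) of the 28138 probes not detected on any array. Among 9402 genes with a single symbol and detected on at least 1 array, 163 (1.73%) were higher and 239 (2.54%) lower. The fold was at least 2 for 52 of the higher and 109 of the lower genes, with a median of 1.69 and 1.89. Of all probes, 6759 lay at or below 0 on every array and were constant once negative values were set to 0. The prior degrees of freedom, which express how well limma knows the spread common to all probes, were 0.733 with all probes and 8.72 with the detected ones. With only the 17143 detected probes in the fit, 1552 (9.05%) were higher and 1485 (8.66%) lower, or 958 (10.2%) and 952 (10.1%) of the 9402 genes, and these held 158 of the 163 higher and 233 of the 239 lower genes. Counts among detected probes come from this second fit. Genes detected on 1 side alone entered it through the side where they were high. Genes are said to have risen or fallen only where they passed the fit over all probes.

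The number of calls over all probes depended on each array. With all 6 arrays it was 645 (1.42%). Leaving out the array of 8, 12 or 24 h gave 210, 71 or 222 calls, and leaving out that of 0, 2 or 4 h gave 100, 73 or 105. Among detected probes it stayed between 1794 and 2635 under the same omissions, against 3037. With the width of the background as a covariate, no probe passed over all probes (5387 had an unadjusted p under 0.05), while 1065 were higher and 1197 lower among detected probes. Within the wide arrays alone, 8 h against 0 and 2 h, 22 detected probes were higher and 84 lower. Within the narrow arrays, 12 and 24 h against 4 h, 412 were higher and 557 lower. No probe called with all 6 arrays changed direction under any of these settings. Every called gene had sides that did not overlap, so for these genes the outcome was fixed in advance. Neither a choice of arrays nor the covariate can reverse such a difference.

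**Figure D1:**
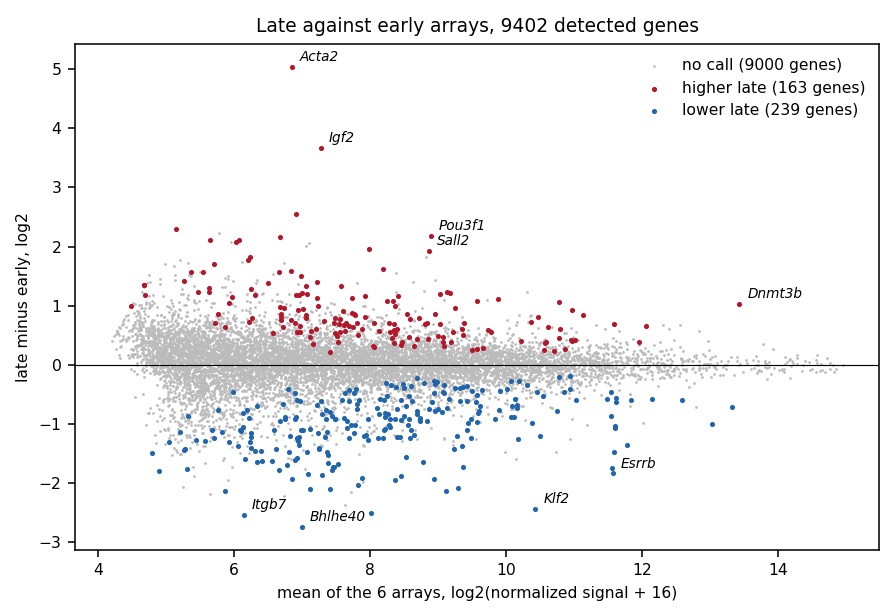
Late minus early difference (log2) of each of 9402 detected genes against its mean over the 6 arrays on the log2(normalized signal + 16) scale. Red points are the 163 genes higher and blue points the 239 lower on late arrays by limma over all probes, grey points did not pass, and Acta2 lies furthest from 0.

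The arrays fell into the same sides when compared in pairs. As the division was chosen with these data known, the pairs describe it and do not test it. Among genes detected on both arrays of a pair, 21 genes (0.326%) were at least 2-fold apart between 12 and 8 h, 35 (0.543%) between 24 and 8 h and 30 (0.354%) between 24 and 12 h. Within the early side the counts were 9 (0.147%) between 2 and 0 h, 28 (0.432%) between 4 and 0 h and 9 (0.145%) between 4 and 2 h. Across the sides, the 8 h array differed in 223 genes (3.64%) from 0 h, 152 (2.54%) from 2 h and 142 (2.21%) from 4 h. The 12 h array differed in 380 (5.88%), 257 (4.16%) and 219 (2.84%) from the same 3 arrays, and the 24 h array in 363 (5.62%), 253 (4.09%) and 213 (2.77%). The narrowest pair across the sides thus held more such genes than any pair within one. The correlation of log2 signals over the 5917 genes detected on all arrays, which are not independent, was 0.987 to 0.993 within the late side, 0.989 to 0.994 within the early side and 0.958 to 0.975 between them.

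**Figure D2:**
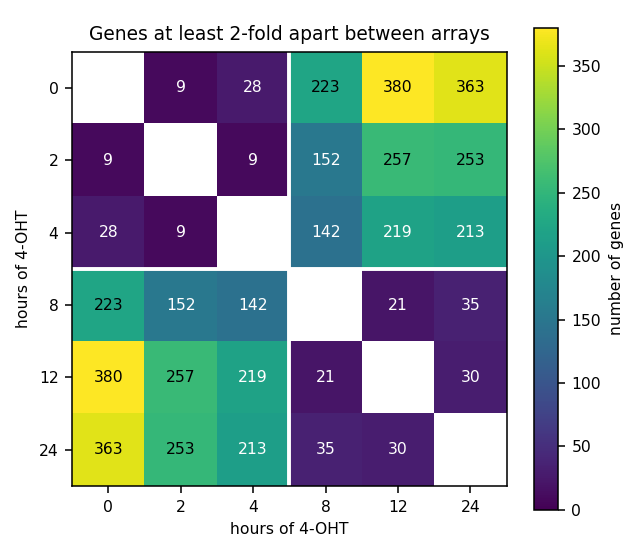
Number of genes at least 2-fold apart between each pair of arrays, among genes detected on both, with hours of 4-OHT on both axes and white lines between 4 and 8 h. Pairs within a side differ in 9 to 35 genes and pairs across the sides in 142 to 380.

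Among all 9402 genes, 2028 (21.6%) had all 3 late arrays above all 3 early ones and 1608 (17.1%) had them below. Every called gene was among these, which the test favours by its nature. The median difference over the 9402 genes was 0.04, and over the 5917 detected throughout it was 0.01. The called genes stepped mainly between 4 and 8 h: the median step in the direction of the call was 0.69 for higher and 0.90 for lower genes there, against 0.09 and 0.07 from 0 to 4 h and 0.02 and -0.01 from 8 to 24 h. Since the test chose genes that varied little within a side, these small steps within a side are in part fixed by that choice. Within the early side, 127 of 163 higher and 161 of 239 lower genes lay nearer the late level at 4 h than at 0 h. Within the late side, 75 of the higher and 132 of the lower genes lay nearer the early level at 24 h than at 8 h.

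**Figure D3:**
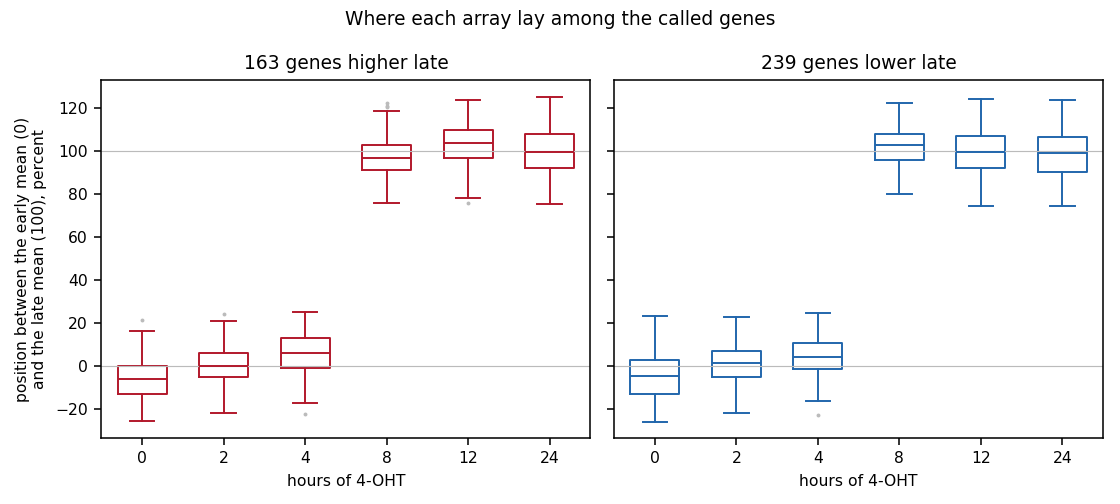
Position of each array among the 163 higher and 239 lower genes, in percent of the way from the early mean (0) to the late mean (100), against hours of 4-OHT, with boxes for the quartiles, lines for the median and whiskers for the range without outlying points. Medians run from 96.9 to 104 percent on late arrays and from -6.36 to 5.90 percent on early arrays.

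The 3 genes that rose the most were barely seen on the early arrays. Acta2, the smooth muscle actin, had normalized signals of 571, 482 and 978 at 8, 12 and 24 h, against 0.0526, 1.88 and 12.6 at 0, 2 and 4 h. It was detected on every late array and on no early array, so the fold is a bound, taken against the lowest signal of a detected probe: at least 9.72-fold higher (difference 5.04 ± 0.36, limma adjusted p = 0.025). Igf2, an imprinted growth factor, had 499, 441 and 700 late against 18.2, 38.2 and 28.7 early and was at least 8.11-fold higher (limma adjusted p = 0.024). Car4, a membrane carbonic anhydrase, had 241, 242 and 355 late against 27.6, 25.5 and 52.4 early (2.55 ± 0.27, limma adjusted p = 0.039), and was detected early only at 4 h. In all 3 genes the lowest late value was more than 4 times the highest early one, and in Acta2 and Car4 the 4 h array was the highest of the early side. The noncoding RNA Miat, the sulfotransferase gene Chst1 and the membrane protein gene Tmem54, none of them detected early, were at least 2.07-fold, 1.98-fold and 1.53-fold higher.

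Igdcc4, a cell surface protein of the immunoglobulin family, was detected on every array, with 481, 507 and 464 late against 103, 117 and 120 early. Its sides were far apart and each was tight, and its moderated t was the largest of the named genes that rose (1.95 ± 0.07, limma adjusted p = 0.016). Gpx3, a secreted glutathione peroxidase, had 279, 281 and 307 late against 101, 104 and 108 early (1.34 ± 0.05). The imprinted noncoding RNA Rian, next to Dlk1 and Meg3 on chromosome 12, rose less (286, 270 and 273 late against 152, 139 and 143 early; 0.86 ± 0.04, limma adjusted p = 0.021). Gpsm1, a regulator of G protein signalling, Jph1, which joins membranes of muscle cells, Commd3 and Repin1 rose by 0.86 to 1.21.

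Naive pluripotency genes were lower on late arrays. Of 15 measured members, 7 fell and none rose over all probes, and 12 were lower and none higher among detected probes. Over all 9402 genes, 2.54% fell and 10.1% were lower among detected probes. The list's median difference was -1.30, beside 0.04 over all genes. In 13 of the 15, all late arrays lay below all early ones, beside 17.1% of all genes. Klf2, a Krüppel-like factor that supports the naive state, had 541, 518 and 691 late against 3718, 2880 and 3037 early (-2.43 ± 0.16, limma adjusted p = 0.022), so the highest late array was far below the lowest early one. Tcl1, a coactivator of Akt kinase, had 83.4, 80.4 and 119 late against 738, 571 and 510 early (-2.50 ± 0.20, limma adjusted p = 0.029). Esrrb, an orphan nuclear receptor of the naive circuit, had 1580, 1543 and 1641 late against 6566, 5130 and 5520 early (-1.84 ± 0.10, limma adjusted p = 0.022). For all 3 genes the 0 h array was the highest of the early side, and the late arrays lay well below each early one.

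Tfcp2l1, which acts downstream of LIF, had 302, 276 and 296 late against 1623, 1195 and 1076 early (-2.08 ± 0.17, limma adjusted p = 0.029). Tbx3, a T-box factor of the same circuit, had 99.96, 72.6 and 123 late against 546, 403 and 394 early (-2.03 ± 0.22, limma adjusted p = 0.040), and its 3 dimmer probes lay the same way. Klf5 fell by 1.20 on the log2 scale (limma adjusted p = 0.024), and Prdm14, a repressor of differentiation genes, fell too but was detected on the 4 h array alone. Just short of the threshold over all probes lay Zfp42, also called Rex1 (1048, 1018 and 960 late against 3749, 2454 and 2461 early, limma adjusted p = 0.050), Nanog (1235, 1147 and 1402 against 3769, 2586 and 2833; 0.055) and Klf4 (129, 105 and 175 against 383, 333 and 401; 0.058). None of these 3 overlapped between the sides, and all passed among detected probes. A second, dimmer probe of Klf4, not counted in the list, did pass over all probes (-1.39 ± 0.12, limma adjusted p = 0.030). Another dimmer Klf4 probe did not (-1.08 ± 0.16, limma adjusted p = 0.065). Gbx2, Fgf4 and Pecam1 were the members that passed in neither fit.

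Snail's preferred motif, the E-box CAGGTG or its reverse complement CACCTG, was looked for in promoters of genes that fell. Windows ran from 250 bases before to 50 bases after the RefSeq start site (mouse assembly GRCm38.p6). The genes examined singly came from the 12 named genes with the largest falls, of which Bhlhe40, Tbx3 and Slc66a2 were left out. Of the genes examined singly, Wfdc2 held 2 motifs and Bmp4 1, while Itgb7, Aurkc and Dnajc6 held none. The other genes, 3 naive genes and Lgals3, are shown because they span the cases from no motif to more than 1. Each motif is in capitals. Tcl1 (chr12:105222688-105222987, minus strand) held 1 motif, Tfcp2l1 (chr1:118627695-118627994, plus strand) 2 and Lgals3 (chr14:47373610-47373909, plus strand) 2, while Klf2 (chr8:72318812-72319111, plus strand) held none in this window.
Tcl1: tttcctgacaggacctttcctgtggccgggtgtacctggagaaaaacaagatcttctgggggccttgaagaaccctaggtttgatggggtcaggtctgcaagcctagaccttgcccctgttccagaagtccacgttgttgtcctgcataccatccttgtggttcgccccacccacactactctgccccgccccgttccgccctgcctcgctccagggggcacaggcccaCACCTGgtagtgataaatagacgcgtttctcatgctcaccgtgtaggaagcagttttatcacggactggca
Tfcp2l1: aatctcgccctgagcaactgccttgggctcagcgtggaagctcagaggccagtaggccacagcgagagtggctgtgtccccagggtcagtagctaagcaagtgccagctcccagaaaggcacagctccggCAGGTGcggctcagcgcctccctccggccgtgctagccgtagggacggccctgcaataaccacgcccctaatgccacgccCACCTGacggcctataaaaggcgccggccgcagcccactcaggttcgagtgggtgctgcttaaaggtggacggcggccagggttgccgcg
Lgals3: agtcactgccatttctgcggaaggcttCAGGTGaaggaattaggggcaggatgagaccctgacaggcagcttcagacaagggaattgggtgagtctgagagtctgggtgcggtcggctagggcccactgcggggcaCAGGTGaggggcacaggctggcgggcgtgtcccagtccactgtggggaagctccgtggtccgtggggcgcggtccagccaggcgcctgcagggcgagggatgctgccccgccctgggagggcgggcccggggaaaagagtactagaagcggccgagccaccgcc
Klf2: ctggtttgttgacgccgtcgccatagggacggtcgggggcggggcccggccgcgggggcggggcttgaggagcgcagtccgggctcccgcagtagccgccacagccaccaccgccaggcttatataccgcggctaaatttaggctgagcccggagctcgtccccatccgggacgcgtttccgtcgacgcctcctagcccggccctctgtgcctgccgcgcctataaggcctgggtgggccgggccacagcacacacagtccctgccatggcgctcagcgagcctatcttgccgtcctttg
Over the genes with such a window, the motif was present in 39 of 183 that fell (21.3%) and 24 of 139 that rose (17.3%), beside 1588 of 7678 measured genes (20.7%). The share in genes that fell was thus close to that of all measured genes. Among detected probes it was 187 of 743 lower genes (25.2%) and 154 of 781 higher genes (19.7%). A match describes letters and not binding.

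General pluripotency genes moved in no common direction. Of 12 measured members, Utf1, a chromatin protein of stem cells, rose (2356, 2356 and 2389 late against 1669, 1838 and 1802 early, 0.42 ± 0.04, limma adjusted p = 0.037) and none fell. Over all genes 1.73% rose and 2.54% fell. Among detected probes 2 members were higher and 2 lower, beside 10.2% and 10.1% of all genes, and the list's median was 0.07. Pou5f1, the gene for OCT4, had 4400, 5083 and 6189 late against 4383, 4046 and 3920 early, with no overlap but with the 8 h array next to the 0 h one (0.33 ± 0.14, limma adjusted p = 0.42). Sox2 had 468, 441 and 558 late against 327, 647 and 516 early, which overlapped (0.02 ± 0.27, limma adjusted p = 1), and the sign of its difference changed with the arrays used. The receptor kinase gene Kit, also counted here, had 73.6, 83.7 and 96.9 late against 645, 426 and 287 early, a wide gap with a large early spread (-2.15 ± 0.31, limma adjusted p = 0.061; 3.7e-05 among detected probes).

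Primed epiblast genes rose in part. Of 8 measured members, 5 rose and none fell, with 6 higher among detected probes and a median difference of 0.87. Over all genes 1.73% rose, and 10.2% were higher among detected probes. Pou3f1, the POU factor also called OCT6, had 1033, 1008 and 959 late against 140, 278 and 233 early (2.17 ± 0.25, limma adjusted p = 0.045). Fgf5, a growth factor of the postimplantation epiblast, had 185, 204 and 212 late against 23.9, 32.5 and 42.5 early, where it was detected at 4 h alone (2.16 ± 0.16, limma adjusted p = 0.025). Sall2, a zinc finger factor, had 886, 882 and 910 late against 192, 233 and 249 early (1.93 ± 0.10, limma adjusted p = 0.021). Each of these genes was at its lowest at 0 h and varied little among the late arrays. Dnmt3b, a de novo DNA methyltransferase, had 16287, 16155 and 14853 late against 6823, 8171 and 8209 early (1.03 ± 0.10, limma adjusted p = 0.034), and its second, dimmer probe rose as well (1.30 ± 0.09). Otx2, a homeobox factor of the epiblast, rose by 0.70 (limma adjusted p = 0.031). Zic2, Lef1 and Cldn6 did not pass, with limma adjusted p of 0.33, 0.48 and 0.66. Of 6 measured genes of DNA methylation and demethylation, Dnmt3b alone passed, and the maintenance enzyme Dnmt1 had a difference of -0.33 (limma adjusted p = 0.14).

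**Figure D4:**
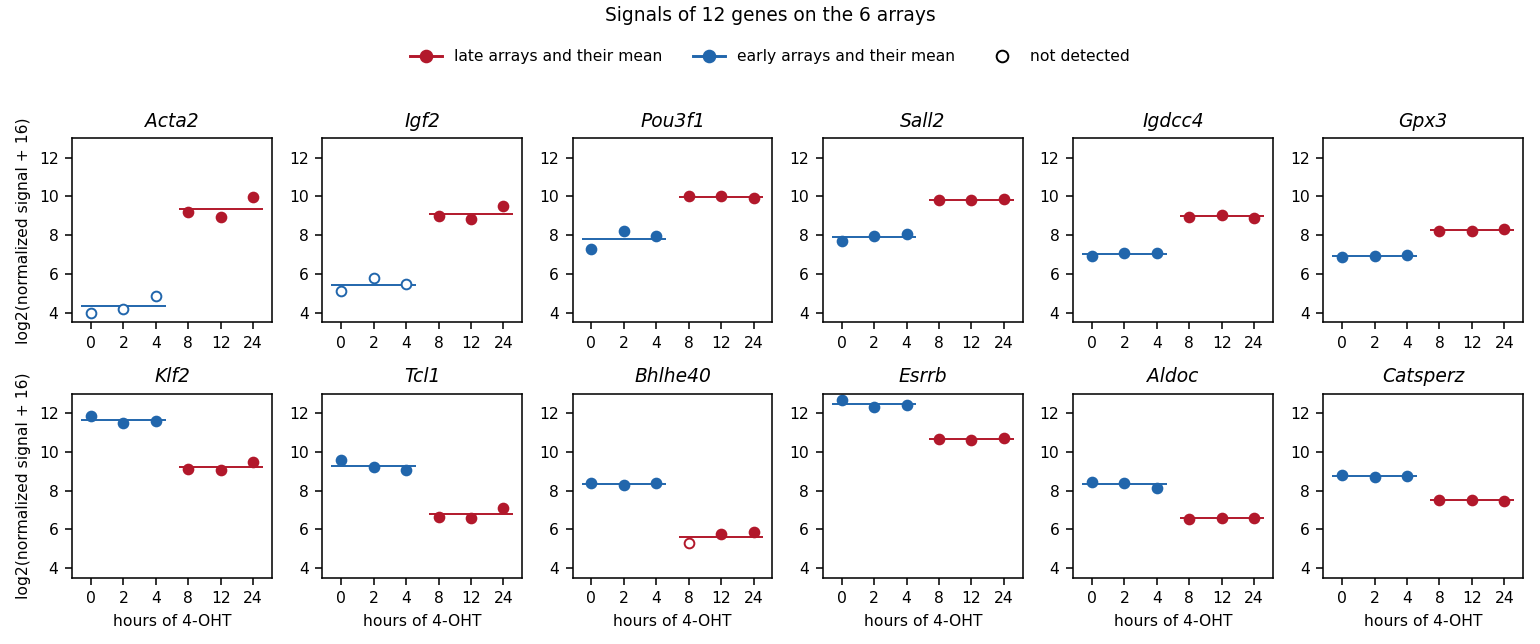
Signals of 12 genes on each array, as log2(normalized signal + 16), against hours of 4-OHT, with late arrays in red, early arrays in blue, a line at the mean of each side and open circles where the probe was not detected. The sides do not overlap in any of the 12 genes, of which Acta2 and Igf2 were not detected on any early array.

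Imprinted genes, whose expression comes from the copy of a particular parent, lay mostly higher on late arrays. Of 13 measured members, 3 rose and none fell over all probes, 10 were higher and none lower among detected probes, and the median difference was 0.86. The shares higher over all genes were 1.73% and 10.2% in the same fits. Of the 13, 9 were detected on all arrays. Igf2, Dlk1, Meg3 and Nnat were detected on late arrays alone, so they entered the detected set only where they were high. The 3 that rose were Igf2, Dlk1, a membrane ligand related to Notch ligands, and Mest, an enzyme of the hydrolase family. Rian, given above, rose too but was not a member of this list. Dlk1 had 107, 129 and 126 late against 16.9, 27.3 and 29.1 early, undetected on each early array, and was at least 2.00-fold higher (limma adjusted p = 0.031). Mest had 656, 675 and 626 late against 315, 346 and 404 early (0.86 ± 0.10, limma adjusted p = 0.042). Cdkn1c, an inhibitor of cyclin-dependent kinases, had 667, 659 and 1151 late against 212, 317 and 348 early, with the 24 h array apart from the other late ones (1.43 ± 0.31, limma adjusted p = 0.13). Peg3 had 490, 547 and 386 against 201, 213 and 257 (1.03 ± 0.16, limma adjusted p = 0.072). The sides did not overlap in either gene.

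Among genes of hypoxia and glycolysis, which respond to the HIF factors and carry sugar breakdown, 8 of 17 measured members fell and none rose, with 13 lower among detected probes and a median of -0.91. Over all genes the shares lower were 2.54% and 10.1%. Within the narrow arrays the list's median was -0.56. Aldoc, an aldolase, had 75.4, 80.03 and 80.4 late against 337, 318 and 270 early (-1.77 ± 0.09, limma adjusted p = 0.021). Pfkp, a phosphofructokinase, had 390, 319 and 330 late against 1182, 1348 and 1038 early (-1.73 ± 0.13, limma adjusted p = 0.026). The glucose transporter gene Slc2a3 had 2167, 2273 and 2086 late against 6023, 5772 and 5001 early (-1.35 ± 0.08, limma adjusted p = 0.022). In these genes every early array lay far above every late one. Pdk1, which keeps pyruvate from the mitochondria, fell by 1.23, and the HIF hydroxylase gene Egln3 fell by 1.01. The glycolytic genes Aldoa and Pgk1 and the transporter gene Slc2a1 fell by 0.57 to 0.59.

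Targets of p53 lay on the higher side: 3 of 11 measured members rose and none fell, with 8 higher among detected probes and a median of 0.46. Over all genes the shares higher were 1.73% and 10.2%. Within the narrow arrays the list's median was 0.74. Phlda3, an inhibitor of Akt, had 795, 910 and 793 late against 386, 462 and 416 early (0.96 ± 0.09, limma adjusted p = 0.033). Ccng1, a cyclin, had 1812, 2126 and 1671 late against 1044, 1060 and 1080 early (0.80 ± 0.09, limma adjusted p = 0.045), and the sestrin gene Sesn2 rose by 0.77. Mdm2, the ubiquitin ligase of p53, had 1388, 2195 and 1693 late against 871, 957 and 1079 early (0.83 ± 0.19, limma adjusted p = 0.15). The 12 h array was the highest in Phlda3, Ccng1 and Mdm2. Cdkn1a, the p21 gene, overlapped between the sides (277, 408 and 376 late against 463, 336 and 399 early, limma adjusted p = 0.72).

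**Figure D5:**
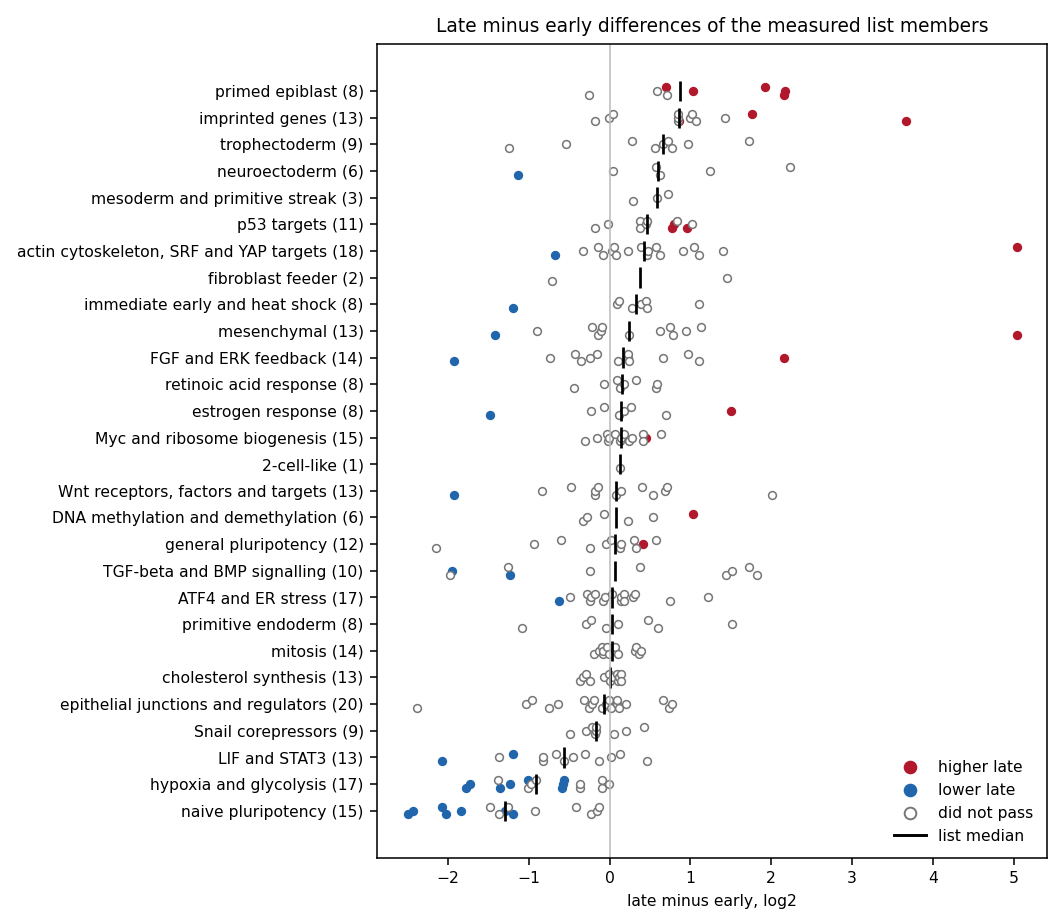
Late minus early difference (log2) of each measured member of 28 gene lists, ordered by the list median (black bar), with the number measured in brackets. Red and blue points passed limma over all probes, open points did not, and the naive pluripotency list has the lowest median (-1.30).

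Epithelial and mesenchymal genes are the classes for which Snail is known. None of 20 measured epithelial junction genes and regulators passed over all probes, where 1.73% of all genes rose and 2.54% fell. Among detected probes 3 were higher and 3 lower, beside 10.2% and 10.1% of all genes, and the median was -0.07. In lists of this size these counts do not set the epithelial genes apart from all genes. Cdh1, which encodes E-cadherin, had 1049, 1080 and 882 late against 1064, 973 and 980 early (-0.01 ± 0.09, limma adjusted p = 1), and the sides overlapped. The claudin gene Cldn4 had 58.1, 97.5 and 62.4 late against 864, 281 and 337 early. The sides lay far apart but the 0 h array stood well above the other early ones (-2.38 ± 0.48, limma adjusted p = 0.12; 2.4e-04 among detected probes). Rab25 and Llgl2, of epithelial trafficking and polarity, had differences of -1.03 and -0.75, and Krt8 and Grhl2 of 0.66 and 0.73, all past the threshold among detected probes only.

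Of 13 measured mesenchymal genes, Acta2 rose and Fn1 fell, with 5 higher and 2 lower among detected probes. Over all genes 1.73% rose and 2.54% fell, and 10.2% were higher and 10.1% lower among detected probes. The list's median was 0.24, or 0.090 within the wide arrays. It was -0.14 over the 7 members in the table without normalization, after normexp background correction. Fn1, fibronectin, had 407, 312 and 343 late against 959, 967 and 982 early (-1.42 ± 0.10, limma adjusted p = 0.024), and its other 2 detected probes lay the same way. Vim, vimentin, had 302, 338 and 469 late against 181, 242 and 192 early, without overlap (0.79 ± 0.20, limma adjusted p = 0.18), and Twist1, detected on 2 arrays, had 1.13 ± 0.19 (limma adjusted p = 0.083). Among 18 measured genes of the actin cytoskeleton and of the factors SRF and YAP, Acta2 rose and Tagln2 fell (-0.67 ± 0.07, limma adjusted p = 0.042). Among detected probes 8 were higher and 2 lower, beside 10.2% and 10.1% of all genes. Zyx, a focal adhesion protein, had 709, 748 and 895 late against 286, 354 and 440 early (1.10 ± 0.18, limma adjusted p = 0.079), with no overlap.

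Each signalling list held 1 or 2 calls over all probes, and counts this small cannot be set apart from the 1.73% of all genes that rose and the 2.54% that fell. Among detected probes, 10.2% of all genes were higher and 10.1% lower. In the TGF-beta and BMP list of 10 measured genes, the ligand gene Bmp4 and the Nodal inhibitor gene Lefty2 fell, with 5 higher and 4 lower among detected probes. Bmp4 had 153, 138 and 166 late against 860, 597 and 494 early (-1.95 ± 0.22, limma adjusted p = 0.042), and Lefty2 had 89.3, 96.5 and 85.6 against 257, 261 and 188 (-1.23 ± 0.14, limma adjusted p = 0.042). Id1, a target of BMP signals, had 808, 558 and 1304 late against 236, 188 and 257 early, with the late arrays high but scattered (1.82 ± 0.34, limma adjusted p = 0.099). Lefty1 had 69.1, 65.9 and 233 late against 457, 522 and 402 early, and its 24 h value accounted for most of the late spread (-1.98 ± 0.49, limma adjusted p = 0.17).

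Of 13 measured genes of LIF and STAT3 signalling, Tfcp2l1 and Klf5 fell and none rose, with 7 lower among detected probes, beside 10.1% of all genes, and a median of -0.56. Both are also naive pluripotency members. Of 13 Wnt genes, Notum, a secreted inhibitor that removes the lipid of Wnt ligands, fell (41.6, 47.4 and 40.8 late, undetected at 8 h, against 267, 227 and 150 early, -1.93 ± 0.22, limma adjusted p = 0.042). The receptor gene Fzd2 had 209, 213 and 363 late against 31.8, 52.1 and 75.6 early (2.01 ± 0.34, limma adjusted p = 0.081). Of 14 genes of FGF and ERK feedback, Fgf5 rose and the early response gene Ier3 fell (127, 99.8 and 93.2 late against 528, 456 and 363 early; -1.92 ± 0.18, limma adjusted p = 0.032), with 4 higher and 4 lower among detected probes. Egr1, an ERK-induced factor, had a difference of 1.11 ± 0.27 (limma adjusted p = 0.17). Dusp1, a phosphatase of MAP kinases, was the 1 of 8 measured immediate early and heat shock genes that fell (434, 384 and 374 late against 983, 917 and 892 early, limma adjusted p = 0.022).

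Outside these lists, Bhlhe40, a helix-loop-helix repressor, was the gene that fell the most. It had 22.6, 37.7 and 42.3 late, undetected at 8 h, against 320, 302 and 320 early (-2.74 ± 0.17, limma adjusted p = 0.022). Itgb7, an integrin subunit, had 15.9, 16.1 and 8.76 late against 210, 151 and 115 early, and Aurkc, a kinase of meiosis, 11.5, 8.60 and 16.4 against 131, 94.4 and 99.2. Neither was detected on a late array, which bounds the falls at 3.75-fold and 2.71-fold or more, while all early arrays were detected. Lgals3, a galectin, had 219, 222 and 274 late against 1165, 876 and 836 early (-1.93 ± 0.16, limma adjusted p = 0.030). Dnajc6, an auxilin that uncoats clathrin vesicles, had 44.2, 54.4 and 56.2 late, undetected at 8 h, against 357, 287 and 195 early (-2.10 ± 0.23, limma adjusted p = 0.042). Its early values were the more spread.

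By consistency rather than size, Catsperz, a subunit of the sperm calcium channel, came first of all genes. It had 167, 165 and 162 late against 426, 398 and 411 early, so the arrays of a side nearly coincided and the sides were 2.37-fold apart (-1.24 ± 0.03, limma adjusted p = 0.0092, the smallest of all probes). This held for 1 probe only. A second, dimmer probe of Catsperz had 65.5, 39.3 and 35.4 late against 88.3, 108 and 81.2 early (-0.81 ± 0.22, limma adjusted p = 0.19). Ifitm1, an interferon-induced membrane protein, had 5989, 5845 and 5811 late against 12409, 11458 and 11612 early (-1.005 ± 0.05, limma adjusted p = 0.021). The histone variant gene Macroh2a1 had 444, 428 and 488 late against 1022, 1003 and 960 early (-1.11 ± 0.06, limma adjusted p = 0.021). The phospholipase gene Liph fell by 1.56, and Tnip1, Acot8 and the pseudogene Gm8615 fell by 0.58 to 0.75.

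The submitters' table without normalization, as held for this work, covers few symbols from the end of the alphabet. Of 7074 genes with symbols from P to Z, 5179 had no probe in it, against 194 of 10178 from A to N. The normalized table held 3032 detected genes, of any symbol, with no probe in the other table, and 49 of them (1.62%) were higher and 83 (2.74%) lower, shares near those of all detected genes. Pou3f1, Sall2, Otx2, Tcl1, Tfcp2l1, Pfkp, Slc2a3 and Phlda3 above were among them.

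Further genes of this kind rose. Zfhx3, a homeobox and zinc finger factor, had 512, 520 and 465 late against 127, 157 and 170 early (1.63 ± 0.11, limma adjusted p = 0.024). Trio, a guanine nucleotide exchange factor, had 217, 270 and 197 late against 71.9, 74.9 and 79.9 early (1.41 ± 0.12, limma adjusted p = 0.031). Zmynd8, a reader of chromatin marks, had 1339, 1472 and 1290 late against 594, 692 and 596 early (1.11 ± 0.08, limma adjusted p = 0.027). In each of these the 12 h array was the highest and the sides were well apart. The phosphatase gene Ptpn14, the phospholipase gene Plcg2, the synaptic adhesion gene Slitrk5, the iron exporter gene Slc40a1 and the selenoprotein gene Selenon rose by 0.97 to 1.34. Rxrg, a retinoid receptor, was detected on every late array and no early one and was at least 1.28-fold higher.

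More of them fell. Wfdc2, a secreted protease inhibitor, had 242, 284 and 225 late against 1431, 1115 and 954 early (-2.14 ± 0.18, limma adjusted p = 0.030). Trh, the thyrotropin-releasing hormone precursor, had 1251, 1742 and 2017 late against 6336, 5545 and 4756 early (-1.74 ± 0.22, limma adjusted p = 0.048). Septin1, a cytoskeletal GTPase, had 76.4, 76.1 and 90.3 late against 362, 285 and 275 early (-1.73 ± 0.13, limma adjusted p = 0.026). The late values of Trh, unlike those of Wfdc2, lay higher at 24 h than at 8 h. Pla1a, Smtnl2, Pmel, Cdhr1, Pgc and Pdzk1 fell by 1.47 to 1.78, and of these only Smtnl2 was detected on the 8 h array.

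Some called genes differed from the common step between 4 and 8 h. Among those with the largest change in the direction of the call by 4 h, Pou3f1 had 140 at 0 h and 233 at 4 h, Bmp4 860 and 494, Dnajc6 357 and 195, and Notum 267 and 150, each still nearer to the early than to the late mean. Among those that had moved back by 24 h, Trh had 1251 at 8 h and 2017 at 24 h, Krt42, a keratin gene, 45.1 and 77.0, Plcg2 917 and 727, and Slc40a1 178 and 139, each still on the late side of the gap. Krt42 was not detected at 8 h, so its move back starts from a value below detection. With 1 array per time, these differences within a side carry no test. Of 164 called genes with several detected probes, 153 had all of them lie the same way, and 11, among them Nap1l1, Trp53bp1, Stk16 and Acads, did not.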

How the data were processed

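Expression was measured in 6 samples on Illumina bead arrays. The authors deposited a table of normalized intensity, linear and with values below 0, for 45281 probes, and a table of intensity without background subtraction with detection p-values, per the file headers. As held here the latter covered 72.4% of the probes. GenomeStudio was used, per the submitters' processing notes; the background and normalization steps are not given in the sources used here. Each array of the normalized table had the same minimum and maximum, as quantile normalization leaves it.

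Negative values were set to 0, 16 was added and log2 taken. limma 3.58.1 (R 4.3.3; lmFit, eBayes with an intensity trend) compared late with early arrays over all probes, and was tested on simulated data. P-values measure the spread between these arrays, which may be technical, and the number of arrays limits the precision. Gene symbols came from the platform annotation: 34885 probes had 1 symbol, 18 several and 10378 none, and 34807 matched RefSeq by identifier. The probe with the highest mean stood for a gene. For genes undetected on a whole side, folds are bounds against the lowest signal of a detected probe. Detection, which the normalized table lacks, was carried over by that signal.

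The members, the gene lists and the division of times were chosen with earlier results of these data known. Named genes were drawn from called genes detected on all 3 arrays of the brighter side. The rules took the 12 largest differences each way, the same among genes outside the table without normalization, and the 8 most extreme moderated t values each way. They also took up to 6 members of each list with defining markers, and the 4 largest changes each way within a side. Not every gene taken by these rules is described, and Spata45 and Zfhx2 are among those left out. List members that did not pass are named with their values, chosen after these were seen. The alternatives were other constants (4 and 64), filters on dim probes, 1 probe per gene, the table without normalization with and without background correction (normexp), other variance priors, the background width (SD above 10 or not), and each array left out. Fits restricted to detected probes with these array choices were added after the data were seen. Python 3.11.15, pandas 2.3.3, SciPy 1.17.1 and matplotlib 3.10.9 were used.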

Additional observations from a re-analysis of the deposited data

How the results depend on the processing

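No paired analysis was possible because each time had 1 array and the labels give no number shared by a late and an early array. Over all probes, 268 probes were higher and 377 lower. Counts stayed within 1.5 times of these with a constant of 4 (283 and 384) or 64 (227 and 320), with 1 probe per gene (335 and 414) and without an intensity trend (257 and 335). Detected probes alone gave 1552 and 1485, probes above 0 on all arrays 1345 and 1409, and probes detected on all arrays 1030 and 1078. The table without normalization gave 658 and 740 with normexp, and 690 and 781 without background correction. A robust prior gave 160 and 219. With background width as a covariate there were 0 and 0, with 5387 probes at an unadjusted p under 0.05. Wide arrays alone gave 2102 and 27 and narrow arrays alone 19 and 2247, in fits where probes set to 0 are constant and 1 residual degree of freedom remains. With an array left out, 12 to 153 were higher and 17 to 88 lower. Among detected probes the covariate gave 1065 and 1197, the wide arrays 22 and 84, the narrow arrays 412 and 557, and leaving out an array 821 to 1295 and 973 to 1340. Different members of the gene lists that were higher and lower numbered 15 and 25 over all probes. They were 70 and 59 among detected probes, 25 and 36 with 1 probe per gene, 41 and 35 with normexp, 39 and 35 without background correction, 9 and 17 with a robust prior and 0 and 0 with the covariate. Wide arrays gave 3 and 3, narrow arrays 3 and 4, probes above 0 gave 64 and 57, and probes detected on all arrays 48 and 49. With an array left out they were 0 to 5 and 0 to 7. Among detected probes the covariate gave 62 and 55, wide arrays 5 and 19, narrow arrays 40 and 40, and leaving out an array 56 to 64 and 51 to 57. The causes were not tested. Of the genes named in the text, 88 had passed, and none of these changed direction in any setting. As their sides did not overlap, neither a choice of arrays nor the covariate could have reversed them. All 88 passed again among detected probes, with the covariate there and with any array left out there, but 42 did on the wide arrays and 80 on the narrow arrays there. Over all probes, 60 passed with a robust prior, 0 with the covariate, 5 on the wide arrays, 8 on the narrow arrays and 10 to 29 with an array left out. Genes that had not passed and changed sign were Cdh1, Sox2, Gbx2 and Cldn6. The difference of Cdh1 was 0.019 with the covariate and 0.043 in wide arrays, and with an array left out it ran from -0.062 (12 h) to 0.082 (24 h). That of Sox2 was -0.017 with the covariate and -0.055 in narrow arrays, and with an array left out it ran from -0.24 (0 h) to 0.23 (2 h). Gbx2 and Cldn6, negative with all arrays, were at 0.091 and 0.080 in narrow arrays, and Gbx2 ran from -0.44 to 0.102 with an array left out. On the wide arrays signal over background limits what can be measured: genes detected only at 12 or 24 h give bounds or values near background.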

Other observations

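Further gene lists held 0 to 2 calls each between late and early arrays. Over all measured genes 1.73% rose and 2.54% fell, so lists of this size hold too few genes for such counts to set them apart. In the fit of detected probes, 10.2% of all genes were higher and 10.1% lower. Of 13 measured cholesterol synthesis genes and 14 mitosis genes, none passed limma over all probes, and their median differences were 0.01 and 0.03. Among detected probes, Fdps of the sterol pathway was lower (-0.37, limma adjusted p = 0.013) and 2 mitosis genes were higher, among them the kinase gene Aurkb (0.37, limma adjusted p = 0.018). Of 15 Myc targets and ribosome biogenesis genes, Ncl, which encodes nucleolin, rose (2149, 2100 and 1897 late against 1499, 1444 and 1523 early, limma adjusted p = 0.048). Of 17 genes of ATF4 and ER stress, Asns, the asparagine synthetase, fell (2429, 2446 and 2644 late against 3640, 3841 and 4150 early, limma adjusted p = 0.038). None of 8 measured retinoic acid response genes passed in either fit. None of 9 measured Snail corepressor genes passed over all probes, and the histone methyltransferase gene Ehmt2 alone was lower among detected probes (-0.49, limma adjusted p = 0.0051). Of 8 estrogen response genes, the chemokine gene Cxcl12 rose (212, 196 and 187 late against 71.5, 44.4 and 66.0 early, limma adjusted p = 0.039) and Pdzk1 fell.

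Among genes of other lineages, 1 of the measured list members passed over all probes, a count not set apart from the shares over all genes. None of 9 trophectoderm genes passed over all probes. Among detected probes 5 were higher and 2 lower, beside 10.2% and 10.1% of all genes. Tfap2c had 131, 125 and 194 late against 479, 341 and 309 early (limma adjusted p = 0.10). The measured genes of the primitive endoderm (8), of mesoderm (3), of fibroblast feeders (2) and of the 2-cell-like state (1) did not pass over all probes either. Among the primitive endoderm genes, Fst was detected at 12 and 24 h only (limma adjusted p = 0.066). Of 6 neuroectoderm genes the adhesion gene Ncam1 fell (85.0, 100 and 102 late against 278, 206 and 209 early, limma adjusted p = 0.047). Sox11 had 632, 611 and 770 late against 217, 297 and 315 early (limma adjusted p = 0.058). A second, slightly dimmer probe of Sox11, not counted in the list, did pass over all probes (1.24 ± 0.15, limma adjusted p = 0.048). Of the called probes, 21 higher and 53 lower ones had no gene symbol.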
